A study of Rattus norvegicus with 24 samples.

Results

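The comparison described here is that of rats given METH (methamphetamine) first and saline a month later, called MS, with rats given saline both times, called SS. Its members were chosen by the group letters in the sample titles and are 11 of the 24 arrays of the study, 7 MS and 4 SS. The MS rats received 1 injection of METH (10 mg/kg) and, after a month, 1 of saline. The SS rats received saline at both injections. The remaining arrays are 7 of rats given METH (10 mg/kg) and a month later METH (2.5 mg/kg), called MM, and 6 of rats given saline and a month later METH (2.5 mg/kg), called SM. All animals were male Sprague-Dawley rats that weighed 375 ± 25 g at the start, and tissue was taken 2 h after the last injection. The labels give the nucleus accumbens (NAc) as the tissue and striatal tissue as its source, and they do not tie arrays to single rats, so that the spread between arrays of a group may be partly technical. RNA was hybridised to 1-colour Illumina BeadChips, on which each probe reports a transcript by its brightness.

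The NAc is the ventral part of the striatum, where dopamine from the midbrain meets glutamate from cortex, hippocampus and amygdala. Nearly all of its neurons are GABAergic medium spiny neurons, which carry D1 or D2 dopamine receptors and use cAMP, calcium and phosphatase cascades to combine both inputs. METH makes dopamine terminals release their transmitter by way of the dopamine and vesicular transporters. Neuropeptides, GABA interneurons and glia surround this circuit, and immediate early genes and hormone-responsive genes record its recent activity.

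The SS arrays stood apart from the others, save for 1 SM array that lay within their range. On the first principal component, which held 25.4% of the variance, the MM arrays lay between 5.78 and 10.3, the MS arrays between -4.60 and 17.4, the SM arrays between -18.9 and 9.73 and the SS arrays between -33.3 and -12.5. The median deposited intensity of an array was 12.8 to 16.4 in MS and 10 to 17.1 in SS, and 51.5% to 53.8% of the probes were detected on the MS arrays and 49.7% to 53.8% on the SS arrays. Both groups lay on both slides, with 4 and 3 MS arrays and 2 and 2 SS arrays on slides 1 and 2. In what follows, a log2 value is the binary logarithm of a background-corrected and quantile-normalized intensity, a log2 difference is MS minus SS unless another comparison is named, and a probe is called at an adjusted p under 0.05 (limma, Benjamini-Hochberg over 12956 probes).

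Of 12956 probes tested, 1140 were higher (8.8%) and 1196 lower (9.23%) in MS, and the sum was 18% of all probes. With 1 probe for each of 8894 named genes, 786 genes were higher (8.84%) and 938 lower (10.5%), and these shares are the background against which each gene family is read. All 7 MS arrays lay above all 4 SS arrays for 5.27% of the named genes and below them for 6.18%. With the authors' series matrix values in place of the normalized intensities, 509 probes were higher and 228 lower, so that 69.1% of the called probes were higher against 48.8% above, and the median log2 difference over all named genes was 0.12 in place of -0.01. Of the named genes, 342 were higher and 177 lower in that setting, which is the background for list counts with the series matrix values. On slide 1 alone 442 probes were called and on slide 2 alone 2079, each with 2 SS arrays. The genes known best from these rats, Avp, Avpr1a, Crh and Cartpt, and the 12 largest changes each way are left aside here in favour of families of genes.

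**Figure D1:**
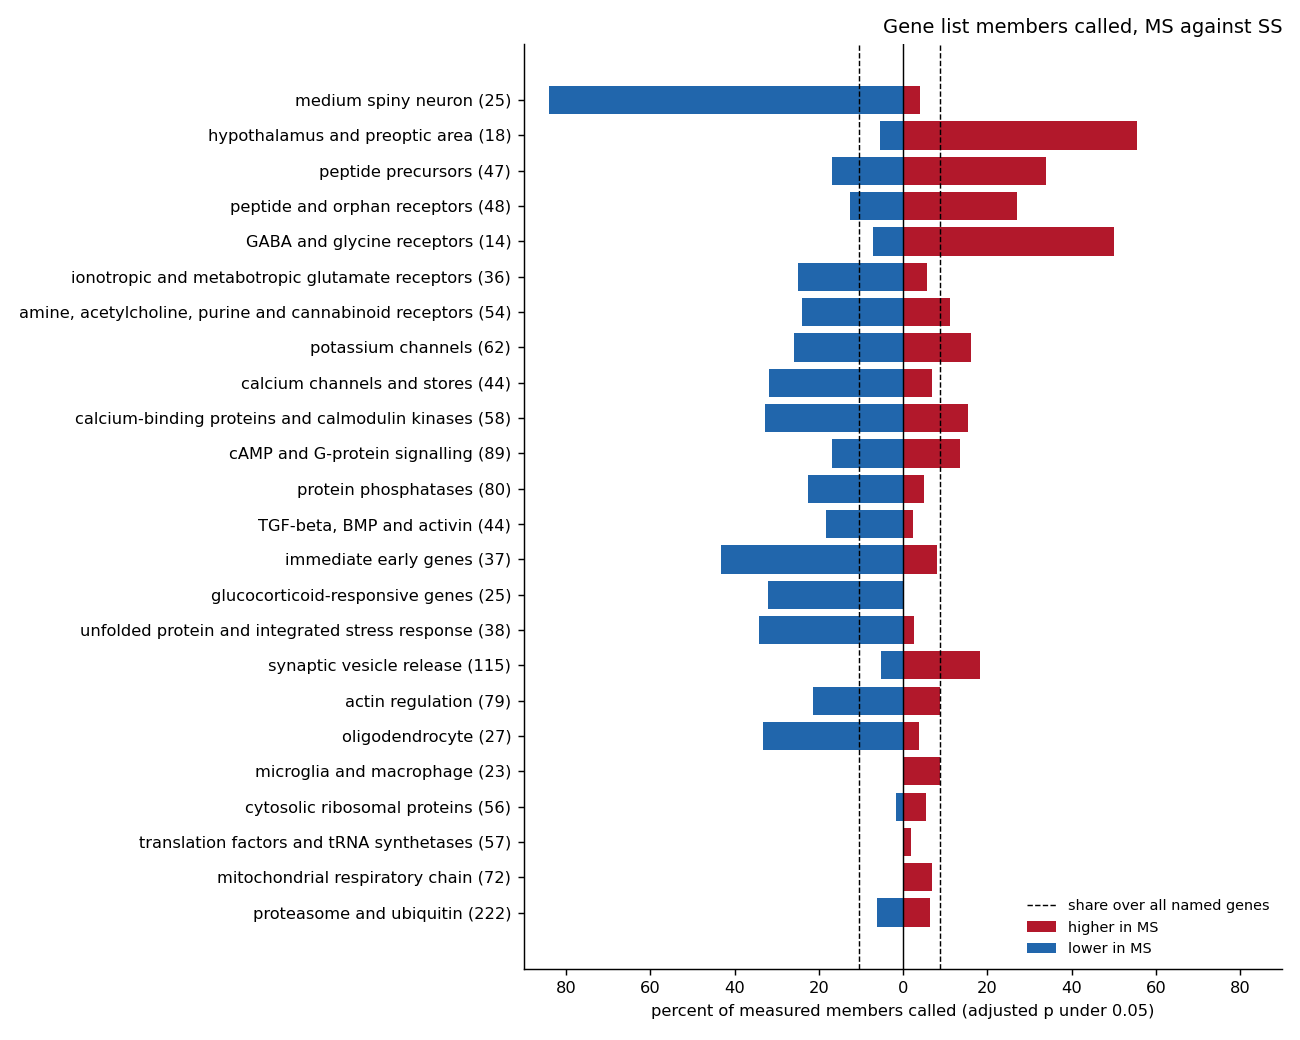
Share of the measured members of 24 gene lists that were called higher (bars to the right) or lower (bars to the left) in MS than in SS, in percent, with the number of members in brackets and dashed lines at the shares over all named genes (8.84% higher and 10.5% lower). Medium spiny neuron, immediate early and chaperone genes extended to the left, and GABA and glycine receptors to the right. Peptide precursors passed both lines, further to the right. Ribosomal, translation and respiratory chain genes stayed within the lines.

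In MS, most marker genes of medium spiny neurons fell, and many of hypothalamus, septum and basal forebrain rose. Of 25 medium spiny neuron markers, 21 were lower and 1 was higher (0 higher and 11 lower with the series matrix values, 0 and 12 on slide 1 alone), with a median log2 difference of -0.51 (-0.58 on slide 1 and -0.50 on slide 2). Their summed normalized intensity was 40161 to 51789 on the MS arrays and 69595 to 76607 on the SS arrays, without overlap. It was 39744 to 46756 on the MM arrays and 43537 to 55378 on the SM arrays, so that all METH groups lay below SS. All 25 markers were detected on every MS and every SS array. Fewer cells of a type and less RNA per cell cannot be told apart in such bulk tissue.

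Drd2, the D2 dopamine receptor of the indirect pathway, had log2 values of 8.05 to 8.39 (median 8.20) in MS, against 9.00, 9.00, 8.94 and 8.93 on the 4 SS arrays. Its groups did not overlap, and it fell 1.69-fold (log2 difference -0.76, SE 0.09, adjusted p = 7.71e-07). Drd1, the D1 receptor of the direct pathway, had log2 values of 9.80 to 10.05 (median 9.91) in MS, against 10.53, 10.53, 10.39 and 10.23 in SS. Drd1 was thus also lower on every MS array, by a smaller log2 difference of -0.50 (SE 0.08, adjusted p = 3.83e-05), a call that was lost with the series matrix values. Tac1, the precursor of substance P in direct-pathway neurons, fell by a log2 difference of 0.88, Rasd2, a striatal GTPase also called Rhes, by 1.18, and Foxp1, a transcription factor of these neurons, by 0.75. Of 18 hypothalamic and preoptic markers, 10 were higher and 1 lower (8 higher and 1 lower with the series matrix values, 4 and 1 on slide 1 alone), with a median of 0.38 and sums of 10842 to 13142 in MS and 7918 to 8629 in SS. The 1 that was lower was Vgf, the precursor of several secretory peptides, at -1.17. The other 7 were not called, among them Oxt, Pomc and Gpr101. Bright members weigh most in these sums, and Ndn, described below, is one of them. Its call was lost on slide 1 alone and with the series matrix values. Calcr, Pmch and Fezf1 of this list were detected on no SS array. Probes were kept when detected on at least 4 of all 24 arrays, so that these genes entered only through the METH groups. Their absence from SS is thus no separate evidence of a rise. Of 9 markers of septum, basal forebrain and bed nucleus, 7 were higher (4 higher and 0 lower with the series matrix values, 1 and 0 on slide 1 alone, median 0.63, sums 2898 to 3417 in MS and 1751 to 2378 in SS). Of 6 genes of cholinergic neurons, 5 were higher (2 higher and 0 lower with the series matrix values, 1 and 0 on slide 1 alone). Of these 5, 2 are also hypothalamic or septal markers, and Slc18a3, the vesicular acetylcholine transporter, was not called. The cholinergic sums overlapped, with 476 to 758 in MS and 400 to 485 in SS. Of 12 markers of cortical glutamate neurons, 7 were lower and 1 higher (0 higher and 4 lower with the series matrix values, 0 and 2 on slide 1 alone, median -0.47, sums 6367 to 13620 in MS and 15091 to 19481 in SS). These marker levels differed between the same groups as every family described next, and their part in those results was not tested. In SM against SS, with no METH a month before, 7 hypothalamic markers were higher and 1 lower, and 5 septal markers higher and none lower. Over all named genes, 6.45% were higher and 8.59% lower there. Sums of the hypothalamic list were 10474 to 11683 in SM and 10298 to 12906 in MM. Those of the septal list were 2735 to 3539 and 2822 to 3469, so that all METH groups lay above SS in both.

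Peptide precursors and their receptors were called more often than all genes in both directions, and more of them were higher than lower in MS. Of 47 precursors measured, 16 were higher and 8 lower, and of 48 peptide and orphan receptors, 13 were higher and 6 lower. Among the precursors, 6 of the 16 that were higher are also hypothalamic or septal markers and 3 of the 8 that were lower are also medium spiny neuron markers. The counts were 11 higher and 4 lower with the series matrix values, 4 and 4 on slide 1 alone for the precursors and 11 higher and 2 lower with the series matrix values, 4 and 2 on slide 1 alone for the receptors.

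Agt, the precursor of the angiotensins, which astrocytes make in brain, had log2 values of 10.72 to 11.11 (median 10.91) in MS, against 9.39, 10.09, 9.51 and 9.78 in SS. Every MS array was above every SS array, and Agt rose 2.30-fold (log2 difference 1.20, SE 0.12, adjusted p = 4.25e-08). Pnoc, the precursor of nociceptin, had log2 values of 7.85 to 8.29 (median 8.19) in MS and 6.78, 7.53, 7.54 and 7.38 in SS, and Oprl1, the nociceptin receptor, 6.62 to 7.00 (median 6.88) in MS and 5.73, 6.19, 6.07 and 6.17 in SS. Ligand and receptor were thus both higher on all MS arrays, Pnoc 1.72-fold (adjusted p = 3.26e-05) and Oprl1 1.76-fold (adjusted p = 1.24e-06). Tac3, the precursor of neurokinin B, rose 1.71-fold (log2 difference 0.77, SE 0.14, adjusted p = 0.000242) without overlap, a call that slide 1 alone did not give. Chgb, a granin of the dense-core vesicles that store these peptides, had log2 values of 11.52 to 11.87 in MS and 11.57 to 11.87 in SS, and no difference was called (log2 difference 0.04, SE 0.07, adjusted p = 0.774).

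The 2 somatostatin receptors described here moved in opposite directions. Sstr1 had log2 values of 7.30 to 8.13 (median 7.75) in MS, against 5.92, 6.32, 7.08 and 6.40 in SS, and Sstr2 had 6.66 to 7.35 (median 6.90) in MS, against 7.78, 7.90, 7.63 and 7.84 in SS. Both are Gi-coupled receptors of the same peptide, and neither overlapped between the groups. Sstr1 rose 2.53-fold (log2 difference 1.34, SE 0.16, adjusted p = 1.24e-06), whereas Sstr2 fell 1.81-fold (log2 difference -0.85, SE 0.12, adjusted p = 5.59e-06). Calcr, the calcitonin receptor, had log2 values of 5.33 to 5.76 on the MS arrays, all of which detected it, and 4.51 to 4.60 on the SS arrays, none of which did, and was at least 1.54-fold higher in MS (adjusted p = 1.00e-06). This bound sets the mean of the MS arrays against the dimmest signal above background on each SS array. Gpr12, an orphan receptor that raises cAMP without a known ligand, fell 1.79-fold (log2 difference -0.84, SE 0.10, adjusted p = 7.94e-07), with 5.95 to 6.42 in MS and 7.01 to 7.29 in SS.

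**Figure D2:**
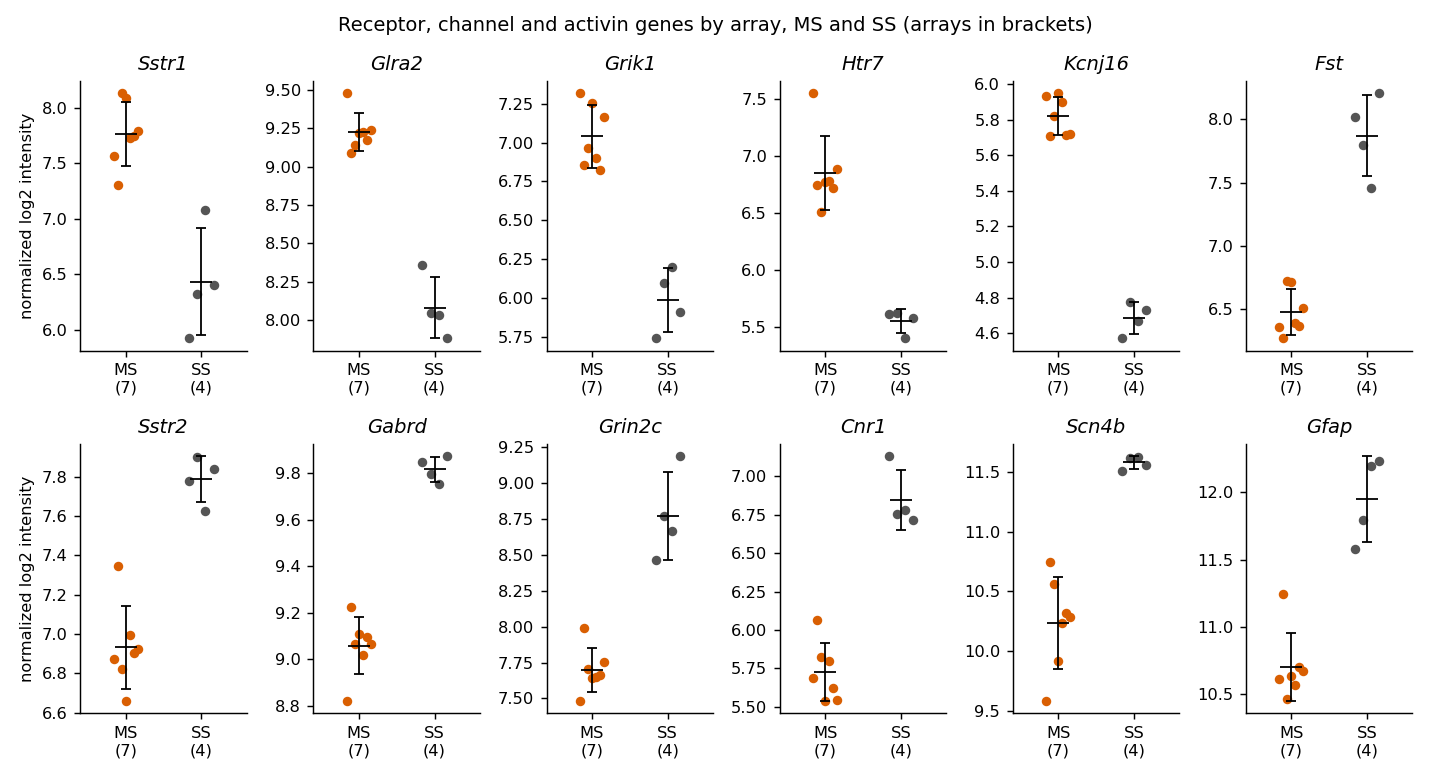
Normalized log2 intensity of 12 genes on each MS array (orange, 7) and each SS array (grey, 4), with group means and SD as bars. The axes do not start at 0 and differ between panels. In each panel the MS and SS arrays did not overlap, with MS above SS for Sstr1, Glra2, Grik1, Htr7 and Kcnj16 and below SS for the other genes. Kcnj16 was detected on no SS array and entered only through the METH groups.

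In the normalized intensities, GABA and glycine receptor genes were more often higher and glutamate receptor genes more often lower in MS. Of 14 GABA and glycine receptor genes, 7 were higher and 1 lower, with a median of 0.28 (0.41 on slide 1 and 0.30 on slide 2). Of 36 glutamate receptor genes, 9 were lower and 2 higher, with a median of -0.16. These counts were lost under other settings: 1 higher and 1 lower with the series matrix values, 1 and 0 on slide 1 alone for GABA and glycine receptors, and 1 higher and 1 lower with the series matrix values, 1 and 2 on slide 1 alone for glutamate receptors. The lists of medium spiny neuron, cortical, hypothalamic and septal markers hold no GABA, glycine or glutamate receptor subunit. Subunits could thus not be shared with them, and the part of the marker levels in these counts was not tested. In SM against SS, which shares the SS arrays, 7 GABA and glycine receptor genes were higher and 1 lower (median 0.33). Of the glutamate receptor genes, 2 were higher and 6 lower there (median -0.06). No member of either list was called in MS against SM.

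Glra2, the alpha2 subunit of the glycine receptor, had log2 values of 9.09 to 9.48 (median 9.22) in MS, against 8.36, 8.05, 8.04 and 7.88 in SS, and rose 2.20-fold (log2 difference 1.14, SE 0.10, adjusted p = 3.02e-09). Gabrb1, a beta subunit of the GABA-A receptor, had 10.75 to 11.12 (median 10.98) in MS and 10.53, 10.52, 10.43 and 10.42 in SS, and rose 1.41-fold (adjusted p = 0.000181). The 1 subunit that was lower was Gabrd, the delta subunit of GABA-A receptors outside the synapse, which mediate tonic inhibition. Its log2 values were 8.82 to 9.23 (median 9.07) in MS, against 9.85, 9.79, 9.75 and 9.87 in SS, a 1.69-fold fall (log2 difference -0.76, SE 0.12, adjusted p = 2.72e-05). These genes did not overlap between the groups. Gabbr1, a GABA-B receptor subunit, was not called (log2 difference 0.15, SE 0.11, adjusted p = 0.409) and its arrays overlapped, with 9.13 to 9.65 in MS and 8.96 to 9.33 in SS. The calls on Gabrb1 and Gabrd were lost on slide 1 alone, and that on Gabrb1 also with the series matrix values.

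Among the glutamate receptors, Grin2c, an NMDA receptor subunit, had log2 values of 7.48 to 7.99 (median 7.66) in MS, against 8.46, 8.77, 8.66 and 9.19 in SS, and fell 2.10-fold (log2 difference -1.07, SE 0.12, adjusted p = 5.57e-07). Grin2a, another NMDA subunit, had 5.86 to 6.87 (median 6.24) in MS and 8.08, 7.06, 7.11 and 6.86 in SS. Its highest MS array lay just above its lowest SS array, and it fell 1.93-fold (adjusted p = 0.00175). Cacng2, or stargazin, which carries AMPA receptors to the synapse, fell 1.43-fold without overlap (log2 difference -0.51, SE 0.10, adjusted p = 0.000742). The calls on Grin2a and Cacng2 were lost with the series matrix values, that on Grin2a also on slide 2 alone and that on Cacng2 on slide 1 alone. The main exception was Grik1, a kainate receptor subunit that interneurons express, with 6.82 to 7.32 (median 6.97) in MS, against 5.74, 6.10, 6.20 and 5.91 in SS, a 2.08-fold rise (log2 difference 1.06, SE 0.12, adjusted p = 4.63e-07). Gria2, the AMPA receptor subunit that limits calcium entry, was not called (log2 difference 0.24, SE 0.11, adjusted p = 0.161), but it was called at a log2 difference of 0.37 (adjusted p = 0.0206) without SS replicate 1, its highest SS array.

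Of 54 receptors of amines, acetylcholine, purines and cannabinoids, 13 were lower and 6 higher (3 higher and 3 lower with the series matrix values, 1 and 4 on slide 1 alone), and 3 of the 13 that were lower are medium spiny neuron markers. With the series matrix values, higher and lower receptors were thus equal in number, where 342 of all named genes were higher and 177 lower. Cnr1, the CB1 cannabinoid receptor of GABA and glutamate terminals, had log2 values of 5.54 to 6.06 (median 5.69) in MS, against 7.13, 6.75, 6.78 and 6.72 in SS. It fell 2.17-fold without overlap (log2 difference -1.12, SE 0.12, adjusted p = 1.18e-07). Htr7, a Gs-coupled serotonin receptor, moved the other way, with 6.51 to 7.55 (median 6.77) in MS, against 5.61, 5.62, 5.40 and 5.57 in SS, and rose 2.47-fold (log2 difference 1.30, SE 0.14, adjusted p = 1.81e-07). MS replicate 1 was the highest array of Htr7, and the other MS arrays were also above every SS array. Hrh3, the histamine autoreceptor, fell 1.66-fold (log2 difference -0.73, SE 0.11, adjusted p = 1.57e-05) and Adora1, the A1 adenosine receptor, 1.40-fold (log2 difference -0.48, SE 0.08, adjusted p = 5.05e-05), both without overlap, and both calls were lost with the series matrix values, that on Adora1 also on slide 1 alone. P2rx4, an ATP-gated channel, was not called (log2 difference 0.16, SE 0.16, adjusted p = 0.532).

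Potassium channel genes moved both ways, with 10 of 62 higher and 16 lower, and both shares were above the background. With the series matrix values more were higher than lower (8 higher and 4 lower, and 3 and 5 on slide 1 alone), as over all named genes in that setting (342 higher and 177 lower). Kcnj16, an inward rectifier, was detected on all 7 MS arrays, at log2 values of 5.71 to 5.95 (median 5.82), and on no SS array, at 4.57, 4.77, 4.67 and 4.73. It was at least 1.85-fold higher in MS (adjusted p = 2.43e-10). Like Calcr, Kcnj16 passed the detection filter only through the METH groups. Its absence from SS is thus no separate evidence of a rise. Kcng1 and Kcns2, subunits that do not conduct alone and modify Kv2 channels, fell 2.12-fold (log2 difference -1.09, SE 0.14, adjusted p = 3.21e-06) and 1.90-fold (log2 difference -0.93, SE 0.12, adjusted p = 1.67e-06), while Kcns3, a subunit of the same kind, rose 1.84-fold (log2 difference 0.88, SE 0.11, adjusted p = 2.03e-06). Kcns2 had log2 values of 5.41 to 5.75 (median 5.61) in MS, against 6.59, 6.62, 6.55 and 6.36 in SS, and Kcns3 had 6.23 to 6.57 (median 6.36) in MS, against 5.26, 5.31, 5.80 and 5.65 in SS. Within this small family of silent subunits, direction was thus split and groups did not overlap. Kcnc2, the Kv3.2 channel of fast-spiking interneurons, rose 1.89-fold (log2 difference 0.92, SE 0.11, adjusted p = 1.35e-06), and Kcnip4, a calcium-binding partner of Kv4 channels, 2.57-fold (log2 difference 1.36, SE 0.23, adjusted p = 8.20e-05). The call on Kcnip4 was lost on slide 1 alone.

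Of 15 sodium channel genes, 2 were lower and 1 higher, and the largest change was that of Scn4b. This beta subunit, which is rich in striatum, had log2 values of 9.58 to 10.74 (median 10.28) in MS, against 11.51, 11.62, 11.63 and 11.56 in SS, and fell 2.54-fold (log2 difference -1.34, SE 0.17, adjusted p = 2.68e-06). The SS arrays of Scn4b spanned a narrow range and the MS arrays a wide one below it. Scn2a, a pore-forming subunit, was not called (log2 difference -0.09, SE 0.15, adjusted p = 0.759). Of 44 genes of calcium channels, pumps and stores, 14 were lower and 3 higher (1 higher and 4 lower with the series matrix values, 1 and 4 on slide 1 alone), with a median of -0.20. Atp2b1, a plasma membrane calcium pump, had 11.76 to 12.29 (median 11.89) in MS, against 12.86, 12.70, 12.75 and 12.68 in SS, and fell 1.76-fold (log2 difference -0.82, SE 0.10, adjusted p = 5.57e-07). Cacnb3, a beta subunit of voltage-gated calcium channels, fell 1.58-fold without overlap (log2 difference -0.66, SE 0.10, adjusted p = 1.40e-05), except on slide 1 alone. Stim1, the calcium sensor of the endoplasmic reticulum, was not called (log2 difference 0.09, SE 0.10, adjusted p = 0.616).

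Calcium-binding proteins and calmodulin kinases, of which 19 of 58 were lower and 9 higher (9 higher and 9 lower with the series matrix values, 5 and 4 on slide 1 alone), included kinases of both directions. Camk4, a nuclear kinase that phosphorylates CREB, had log2 values of 6.58 to 7.42 (median 6.98) in MS, against 7.95, 7.92, 8.01 and 7.86 in SS, and fell 1.96-fold (log2 difference -0.97, SE 0.12, adjusted p = 1.25e-06). Camk1g had 7.72 to 8.14 (median 8.01) in MS, against 7.08, 7.36, 7.12 and 7.38 in SS, and rose 1.66-fold (log2 difference 0.73, SE 0.09, adjusted p = 1.67e-06). The calmodulin gene Calm2 was not called (log2 difference -0.06, SE 0.06, adjusted p = 0.622).

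In cAMP and G-protein signalling, 12 of 89 genes were higher and 15 lower (6 higher and 5 lower with the series matrix values, 3 and 5 on slide 1 alone), and 5 of the 15 that were lower are medium spiny neuron markers. The pathway makes cAMP by adenylyl cyclases, breaks it down by phosphodiesterases and acts through protein kinase A on inhibitors of protein phosphatase 1. Ppp1r1a, or inhibitor 1, had log2 values of 5.58 to 6.02 (median 5.81) in MS, against 7.16, 6.87, 6.83 and 7.08 in SS, and fell 2.30-fold (log2 difference -1.20, SE 0.11, adjusted p = 6.80e-09). Ppp1r1b, or DARPP-32, its striatal relative, had 12.71 to 12.93 (median 12.87) in MS, against 13.46, 13.56, 13.52 and 13.78 in SS, and fell 1.65-fold (log2 difference -0.73, SE 0.09, adjusted p = 1.36e-06). Both inhibitors were lower on every MS array than on any SS array. Pde10a and Pde2a, phosphodiesterases of cAMP and cGMP, fell 2.03-fold (log2 difference -1.02, SE 0.12, adjusted p = 4.12e-07) and 1.69-fold (log2 difference -0.76, SE 0.10, adjusted p = 5.76e-06). Adcy8, a cyclase that calcium and calmodulin activate, rose 1.81-fold (log2 difference 0.86, SE 0.10, adjusted p = 8.22e-07), with 6.88 to 7.13 in MS and 5.68 to 6.36 in SS. Gnb1, a G-protein beta subunit, was not called (log2 difference -0.11, SE 0.09, adjusted p = 0.458).

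RGS proteins end G-protein signals, and 4 of 12 were lower and 1 higher. Rgs9, the striatal member that acts on D2 receptor signals and a medium spiny neuron marker, had log2 values of 11.22 to 12.20 (median 11.98) in MS, against 12.67, 12.80, 12.89 and 13.06 in SS, and fell 1.95-fold (log2 difference -0.96, SE 0.14, adjusted p = 1.02e-05). Rgs4 had 10.21 to 10.59 (median 10.43) in MS, against 11.24, 10.93, 11.46 and 11.31 in SS, and Rgs8 had 7.71 to 8.13 (median 7.89) in MS, against 8.64, 8.68, 8.64 and 8.85 in SS. These genes are outside the marker list and did not overlap either, with falls of 1.77-fold (adjusted p = 1.68e-07) for Rgs4 and 1.76-fold (adjusted p = 3.26e-07) for Rgs8. Rgs7 was not called (log2 difference 0.09, SE 0.07, adjusted p = 0.433).

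Of 80 protein phosphatase genes, 18 were lower and 4 higher (2 higher and 5 lower with the series matrix values, 1 and 3 on slide 1 alone), and 3 of the 18 are medium spiny neuron markers. Of 59 genes of the MAP kinase pathway, 13 were lower and 4 higher (0 higher and 3 lower with the series matrix values, 0 and 3 on slide 1 alone). Ptpn5, the striatal phosphatase STEP, which acts on ERK and on glutamate receptors, fell 1.65-fold (log2 difference -0.72, SE 0.10, adjusted p = 1.13e-05). Dusp6, a phosphatase of ERK that ERK signals induce, had log2 values of 7.96 to 8.58 (median 8.13) in MS, against 9.40, 8.94, 8.69 and 8.73 in SS, and fell 1.67-fold (log2 difference -0.74, SE 0.13, adjusted p = 0.000223). Neither gene overlapped between the groups, and the call on Dusp6 was lost with the series matrix values and that on Ptpn5 on slide 1 alone.

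The TGF-beta, BMP and activin pathway passes signals from secreted dimers through paired receptors to Smad proteins, and follistatin binds and blocks activin. Of 44 genes of this pathway, 8 were lower and 1 higher (1 higher and 5 lower with the series matrix values, 0 and 3 on slide 1 alone), with a median of -0.13. The ligand gene Tgfb1 had log2 values of 5.39 to 6.00 (median 5.73) in MS, against 6.25, 6.38, 6.23 and 6.78 in SS, and fell 1.66-fold (log2 difference -0.74, SE 0.13, adjusted p = 0.000219). Fst, which encodes follistatin, had 6.27 to 6.73 (median 6.39) in MS, against 8.02, 7.80, 7.46 and 8.21 in SS, and fell 2.63-fold (log2 difference -1.40, SE 0.12, adjusted p = 6.58e-09). The highest MS array of Fst lay well below its lowest SS array. Acvr1c, the activin receptor ALK7, had 7.82 to 8.52 (median 8.14) in MS, against 9.86, 9.62, 9.20 and 9.46 in SS, and fell 2.65-fold (log2 difference -1.41, SE 0.16, adjusted p = 5.95e-07). Acvr1, another type I receptor, fell 1.56-fold (log2 difference -0.64, SE 0.12, adjusted p = 0.000484), and Smad7, the inhibitory Smad that TGF-beta induces, 2.02-fold (log2 difference -1.01, SE 0.17, adjusted p = 0.000104). The genes that fell thus included a ligand, receptors and both inhibitors, and all were lower on each MS array than on any SS array, although the ranges of Smad7 met at 7.25. Id2, a target of BMP signals, was not called (log2 difference -0.13, SE 0.11, adjusted p = 0.46). The calls on Tgfb1 and Smad7 were lost on slide 1 alone, that on Acvr1 on slide 1 alone and with the series matrix values.

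Genes that respond to neuronal activity were lower in MS more often than all genes, but Fos, Junb and Egr1, the transcription factors known best for this, were not called. Of 37 immediate early genes, 16 were lower and 3 higher (0 higher and 8 lower with the series matrix values, 0 and 6 on slide 1 alone), with a median of -0.30 (-0.33 on slide 1 and -0.18 on slide 2). Many genes of this class are switched on through a cAMP response element (CRE), the motif TGACGTCA, to which CREB binds. In the 250 bases before the start of each gene (RefSeq, GRCr8), this motif was found on either strand in 4 of the 30 genes of the list with a promoter sequence (13.3%), against 490 of all 27457 genes (1.78%). This share describes the list and not MS against SS. All 4 genes with the motif were lower in MS, Plk2 in some settings only. Their stretches, with the CRE in capitals, show where it lies and what surrounds it in the genes that carried it.
Dusp1 (chr10:17184717-17184748, plus strand): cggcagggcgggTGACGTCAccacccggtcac
Ier2 (chr19:40399295-40399326, plus strand): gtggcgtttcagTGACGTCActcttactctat
Plk2 (chr2:43702458-43702489, plus strand): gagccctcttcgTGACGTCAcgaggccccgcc
Crem, promoter 1 (chr17:58984729-58984760, plus strand): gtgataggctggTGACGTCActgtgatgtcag
Crem, promoter 2 (chr17:58985443-58985474, plus strand): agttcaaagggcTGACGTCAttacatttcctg

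Dusp1, a phosphatase of MAP kinases that both activity and glucocorticoids induce, had log2 values of 8.88 to 9.73 (median 9.04) in MS, against 9.78, 10.43, 9.51 and 9.53 in SS. Its groups overlapped through the highest MS array, and it fell 1.58-fold (log2 difference -0.66, SE 0.15, adjusted p = 0.00287), a call that was lost on slide 2 alone and with the series matrix values. Ier2 had 5.18 to 5.90 (median 5.51) in MS, against 6.12, 6.00, 6.13 and 6.66 in SS, and fell 1.67-fold without overlap (log2 difference -0.74, SE 0.12, adjusted p = 9.34e-05), which slide 1 alone did not give. Crem and Plk2 were named after their values were seen, for the motif. Crem, whose short product ICER represses CRE genes, fell 1.46-fold (log2 difference -0.55, SE 0.14, adjusted p = 0.00767) and lost its call on slide 1 alone and with the series matrix values. Plk2, a kinase that scales synapses down, had a log2 difference of -0.33 (adjusted p = 0.0306), a weak call. It ended when MS replicate 2, 3 or 6 or SS replicate 1 or 2 was left out (without SS replicate 1 the adjusted p was 0.147), on either slide alone, with arrays scaled to one median, with the series matrix values, with array weights and with only the MS and SS arrays fitted.

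Zfp36, which degrades cytokine mRNAs, had log2 values of 6.42 to 6.71 (median 6.65) in MS, against 7.32, 7.38, 7.20 and 7.46 in SS, and fell 1.66-fold (log2 difference -0.73, SE 0.08, adjusted p = 4.57e-07). Ier5 had 5.94 to 6.55 (median 6.34) in MS, against 7.42, 7.48, 6.84 and 6.80 in SS, and fell 1.78-fold (log2 difference -0.83, SE 0.14, adjusted p = 7.42e-05). Neither gene overlapped between the groups. Gadd45g and Gadd45b, stress-inducible genes with a part in DNA demethylation, fell 1.72-fold (log2 difference -0.78, SE 0.15, adjusted p = 0.000432) and 1.56-fold (log2 difference -0.65, SE 0.13, adjusted p = 0.000993), also without overlap, and lost their calls on slide 1 alone. Btg1, an antiproliferative gene, was higher, with 10.89 to 11.12 (median 11.06) in MS, against 10.66, 10.55, 10.33 and 10.24 in SS (log2 difference 0.60, SE 0.09, adjusted p = 1.18e-05). The calls on Ier5 and Btg1 were lost with the series matrix values and that on Btg1 also on slide 1 alone. Egr1 was not called (log2 difference -0.41, SE 0.16, adjusted p = 0.0753), but without MS replicate 2 its log2 difference was -0.54 (adjusted p = 0.00286).

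Fos, Nr4a3, Egr4 and Junb, transcription factors with the smallest p in MS against SM, were chosen after their values were seen, and set the MS rats beside the SM rats, which had METH 2 h before. In MS against SM, 15 immediate early genes were lower and none higher, while over all named genes 0.528% were lower and 0.146% higher. In SM against SS, which shares the SS arrays, 11 were higher and 4 lower, with 6.45% of all named genes higher and 8.59% lower. Fos had log2 values of 7.59 to 8.26 (median 8.13) in MM, 5.81 to 7.00 (median 6.23) in MS, 7.43 to 8.34 (median 7.72) in SM and 5.77, 6.06, 6.03 and 6.44 on the SS arrays. MS and SS overlapped, with a log2 difference of 0.19 (SE 0.18, adjusted p = 0.536), and MS minus SM was -1.52 (SE 0.16, adjusted p = 3.38e-06). Nr4a3 had 7.83 to 8.81 (median 8.49) in MM, 6.70 to 7.82 (median 6.99) in MS, 8.31 to 9.05 (median 8.74) in SM and 7.50, 6.98, 6.22 and 6.38 in SS, and differed from SM by -1.69 (adjusted p = 1.03e-05) and from SS by 0.25 (adjusted p = 0.489). Egr4 and Junb did so by -1.44 and -1.01 from SM (adjusted p = 2.90e-06 and 0.000447) and by -0.17 and 0.19 from SS (adjusted p = 0.549 and 0.494). Fos, Nr4a3, Egr4 and Junb were thus called in MS against SM and not in MS against SS. Dusp1 (-0.95, adjusted p = 0.000447), Ier5 (-0.59, adjusted p = 0.0136) and Gadd45g (-0.68, adjusted p = 0.00991) passed in both comparisons, which share the MS arrays (values against SM).

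**Figure D3:**
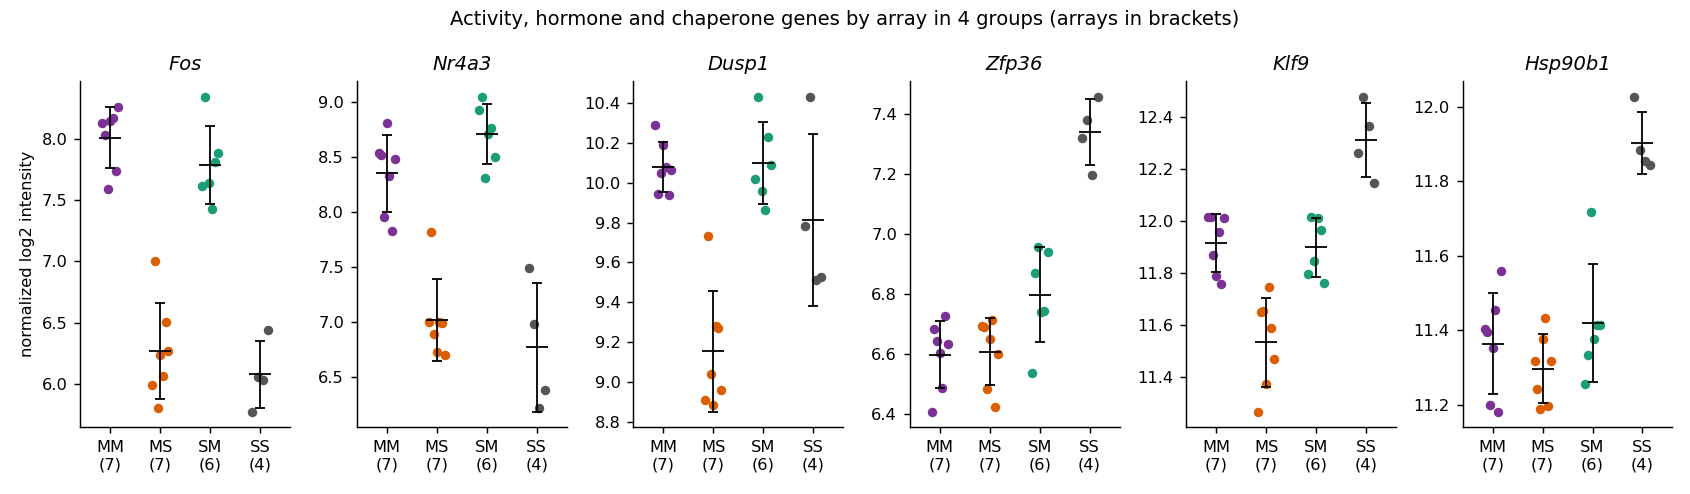
Normalized log2 intensity of 6 genes on each array of the MM (7), MS (7), SM (6) and SS (4) groups, with group means and SD as bars on axes that differ between panels and do not start at 0. Fos and Nr4a3 were high in MM and SM, the groups given METH 2 h before, Dusp1 was lowest in MS, and Zfp36, Klf9 and Hsp90b1 were highest in SS.

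Glucocorticoids act through a nuclear receptor that switches on a small set of genes in most tissues, and of 25 such genes, 8 were lower in MS and none higher (0 higher and 2 lower with the series matrix values, 0 and 5 on slide 1 alone). Klf9, a Kruppel-like factor, had log2 values of 11.27 to 11.74 (median 11.59) in MS, against 12.26, 12.48, 12.37 and 12.15 in SS, and fell 1.72-fold (log2 difference -0.78, SE 0.09, adjusted p = 4.57e-07). Fkbp5, the co-chaperone that restrains the receptor, had 9.50 to 9.95 (median 9.60) in MS, against 10.51, 10.41, 10.14 and 10.19 in SS, and fell 1.59-fold (log2 difference -0.67, SE 0.10, adjusted p = 1.23e-05). Sgk1, a kinase, had 10.21 to 10.60 (median 10.44) in MS, against 11.27, 12.15, 10.79 and 10.81 in SS, and fell 1.76-fold (log2 difference -0.82, SE 0.17, adjusted p = 0.0013). In all these genes the MS arrays lay below the SS arrays, and for Sgk1 the SS arrays of slide 1 were the highest, with log2 differences of -1.28 on slide 1 and -0.36 on slide 2. Slide 2 alone and the series matrix values each ended the call on Sgk1, and the series matrix values also that on Fkbp5. Klf9 and Fkbp5 were also lower in MS than in SM, with log2 differences of -0.36 (adjusted p = 0.0235) and -0.35 (adjusted p = 0.0494). Tsc22d3, or GILZ, another classic target, was not called (log2 difference -0.09, SE 0.10, adjusted p = 0.58). Of 14 genes of the circadian clock, 3 were lower and none higher (0 higher and 0 lower with the series matrix values, 0 and 2 on slide 1 alone). Cry1, a repressor of the clock, fell 1.49-fold (log2 difference -0.57, SE 0.10, adjusted p = 0.000188), a call that the series matrix values did not give. Per1, which is also an immediate early and glucocorticoid-responsive gene, was not called (log2 difference -0.23, SE 0.12, adjusted p = 0.195), though it was without MS replicate 2 (adjusted p = 0.0434) and without SS replicate 3 (adjusted p = 0.0431).

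Chaperones of the endoplasmic reticulum (ER) were more often lower than higher in MS. Of 38 genes of the unfolded protein and integrated stress responses, 13 were lower and 1 higher (0 higher and 1 lower with the series matrix values, 0 and 4 on slide 1 alone), with a median of -0.16, and 9 were lower on all MS arrays than on any SS array. With the series matrix values 1 gene of the list was lower, Pdia5, and the calls on the others were lost. Unfolded proteins free the factor ATF6, which with NF-Y binds the ER stress response element (ERSE), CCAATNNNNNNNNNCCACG. In the same window of 250 bases this motif was found on either strand in 8 of 34 genes of the list with a promoter sequence (23.5%), against 21 of all 27457 genes (0.0765%). Of these 8 genes, 5 were lower, 1 was higher and 2 were not called. The list was made of genes of this response, so that the share with the motif describes the list and not MS against SS. Stretches of the 6 called genes and of Xbp1 are given 5′ to 3′ on the gene's strand with the ERSE in capitals, which begins with CGTGG where it lies on the other strand.
Hsp90b1 (chr7:23012335-23012481, minus strand): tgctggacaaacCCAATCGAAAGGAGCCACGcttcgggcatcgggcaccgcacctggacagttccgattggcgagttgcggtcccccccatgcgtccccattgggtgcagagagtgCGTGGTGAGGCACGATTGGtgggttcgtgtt
Calr (chr19:40213123-40213165, plus strand): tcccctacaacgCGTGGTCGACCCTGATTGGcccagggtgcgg
Dnajc3 (chr15:102432522-102432564, plus strand): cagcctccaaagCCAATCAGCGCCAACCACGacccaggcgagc
Hspa5 (chr3:38452961-38453003, plus strand): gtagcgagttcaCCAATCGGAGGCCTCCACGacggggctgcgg
Creld2 (chr7:121789227-121789269, plus strand): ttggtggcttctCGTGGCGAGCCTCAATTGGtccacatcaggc
Canx (chr10:35158057-35158099, minus strand): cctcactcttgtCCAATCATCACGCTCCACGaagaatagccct
Xbp1 (chr14:84604546-84604588, plus strand): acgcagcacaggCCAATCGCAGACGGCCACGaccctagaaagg

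Hsp90b1, the ER chaperone GRP94, whose stretch holds 2 copies, had log2 values of 11.19 to 11.43 (median 11.32) in MS, against 12.03, 11.88, 11.86 and 11.85 in SS, and fell 1.52-fold (log2 difference -0.61, SE 0.08, adjusted p = 6.67e-06). Calr, the lectin chaperone calreticulin, had 11.88 to 12.49 (median 12.37) in MS, against 12.66, 12.82, 12.76 and 12.69 in SS, and fell 1.34-fold (log2 difference -0.42, SE 0.09, adjusted p = 0.00147). Dnajc3, a co-chaperone that also inhibits the kinase PERK, had 7.93 to 8.37 (median 8.15) in MS, against 8.55, 8.78, 8.42 and 8.59 in SS, and fell 1.33-fold (log2 difference -0.41, SE 0.10, adjusted p = 0.00291). The groups did not overlap for any of these genes. The call on Calr was lost on slide 1 alone and that on Dnajc3 on slide 2 alone and with arrays scaled to one median. Hspa5, Creld2, Canx and Xbp1 were named after their values were seen, for the motif. Hspa5, the central ER chaperone BiP, fell 1.35-fold (log2 difference -0.44, SE 0.13, adjusted p = 0.0172) and Creld2 1.33-fold (log2 difference -0.41, SE 0.10, adjusted p = 0.00592), and both calls were lost without SS replicate 2 (adjusted p = 0.119 and 0.0549), on either slide alone and with the series matrix values. Canx, the membrane-bound relative of Calr, moved the other way (log2 difference 0.40, SE 0.12, adjusted p = 0.0201) and was not called without SS replicate 4 (adjusted p = 0.113), on slide 1 alone, with arrays scaled to one median or with the series matrix values. Xbp1, which encodes another factor of the response, was not called (log2 difference -0.07, SE 0.13, adjusted p = 0.764).

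Genes of the list without the motif in this window also fell, among them Pdia5, a protein disulfide isomerase, with 5.70 to 6.02 (median 5.84) in MS, against 6.45, 6.81, 6.25 and 6.56 in SS (log2 difference -0.67, SE 0.10, adjusted p = 2.13e-05), and Dnajb11, an ER co-chaperone (log2 difference -0.47, SE 0.09, adjusted p = 0.000273). P4hb, another disulfide isomerase, was not called (log2 difference -0.14, SE 0.08, adjusted p = 0.213). Among 79 heat shock proteins and co-chaperones, 14 were lower and 5 higher (2 higher and 2 lower with the series matrix values, 1 and 6 on slide 1 alone). Cryab, a small heat shock protein of oligodendrocytes and astrocytes, had 9.50 to 10.10 (median 9.94) in MS, against 10.75, 11.07, 11.34 and 11.13 in SS, and fell 2.32-fold (log2 difference -1.21, SE 0.14, adjusted p = 5.57e-07), without overlap.

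Genes of synaptic vesicles were higher more often than lower, with 21 of 115 higher and 6 lower (7 higher and 0 lower with the series matrix values, 2 and 0 on slide 1 alone), but with small differences and a median of 0.07. Syp, the vesicle protein synaptophysin, had log2 values of 11.81 to 12.10 (median 12.03) in MS, against 11.49, 11.64, 11.61 and 11.54 in SS, and rose 1.35-fold (log2 difference 0.43, SE 0.07, adjusted p = 0.000117). Syt1, the calcium sensor of fast release, had 12.63 to 12.86 (median 12.68) in MS, against 12.31, 12.37, 12.39 and 12.20 in SS, and rose 1.32-fold (log2 difference 0.40, SE 0.08, adjusted p = 0.000646). Cadps, which primes dense-core vesicles, rose 1.51-fold (log2 difference 0.60, SE 0.08, adjusted p = 2.67e-06). None of these overlapped between the groups, and slide 1 alone and the series matrix values each ended the calls on Syp and Syt1.

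Actin regulators were more often lower, 17 of 79 against 7 higher (4 higher and 7 lower with the series matrix values, 1 and 7 on slide 1 alone). Actn2, an alpha-actinin of dendritic spines, had log2 values of 8.74 to 9.57 (median 9.15) in MS, against 10.02, 10.02, 10.15 and 10.30 in SS, and fell 1.97-fold (log2 difference -0.98, SE 0.13, adjusted p = 2.47e-06). Acta1, an actin known best from skeletal muscle, fell 1.89-fold without overlap (log2 difference -0.91, SE 0.11, adjusted p = 5.21e-07). Actb, or beta-actin, was not called (log2 difference -0.06, SE 0.08, adjusted p = 0.668).

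Of 96 genes of the extracellular matrix, 18 were lower and 10 higher (5 higher and 4 lower with the series matrix values, 5 and 2 on slide 1 alone). Reln, the secreted protein reelin of some interneurons, had log2 values of 9.25 to 9.99 (median 9.64) in MS, against 10.79, 10.47, 10.57 and 10.48 in SS, and fell 2.01-fold (log2 difference -1.01, SE 0.11, adjusted p = 3.55e-07). Col18a1, a collagen of basement membranes, fell 2.03-fold (log2 difference -1.02, SE 0.15, adjusted p = 1.15e-05) and lost its call on slide 1 alone. Other matrix genes were higher without overlap. Gpc3, a heparan sulfate proteoglycan of the cell surface, had 8.60 to 8.99 (median 8.75) in MS, against 7.80, 7.86, 7.78 and 7.89 in SS, and rose 1.93-fold (log2 difference 0.95, SE 0.09, adjusted p = 1.75e-08), and Spp1, or osteopontin, had 5.99 to 7.19 (median 6.64) in MS, against 5.21, 5.16, 5.23 and 5.51 in SS, and rose 2.64-fold (log2 difference 1.40, SE 0.16, adjusted p = 3.26e-07). Among 86 genes of synaptic adhesion, 13 were higher and 11 lower (10 higher and 1 lower with the series matrix values, 5 and 3 on slide 1 alone), and Cntnap4, a neurexin relative of interneuron synapses, rose 1.77-fold (log2 difference 0.82, SE 0.11, adjusted p = 2.98e-06).

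Among glial genes, astrocyte and microglial shares lay near the background. Of 26 astrocyte genes, 3 were higher and 3 lower, and their sums overlapped (69588 to 74073 in MS and 72269 to 75132 in SS). Gfap, the intermediate filament of astrocytes, had log2 values of 10.46 to 11.24 (median 10.63) in MS, against 11.58, 11.79, 12.20 and 12.24 in SS, and fell 2.38-fold (log2 difference -1.25, SE 0.13, adjusted p = 9.45e-08). Slc1a3, the glutamate transporter GLAST, rose 1.32-fold (log2 difference 0.40, SE 0.09, adjusted p = 0.00314), though not on slide 1 alone, with the series matrix values or with arrays scaled to one median. Gja1, or connexin 43, was not called (log2 difference 0.17, SE 0.09, adjusted p = 0.196), but without SS replicate 1, its highest SS array, it was (log2 difference 0.26, adjusted p = 0.0389). Gfap was thus among the 3 astrocyte genes that were lower, and neither Slc1a3 nor Gja1 was. Of 27 oligodendrocyte genes, 9 were lower and 1 higher (0 higher and 2 lower with the series matrix values, 0 and 1 on slide 1 alone, median -0.23, sums 35276 to 42587 in MS and 44699 to 52683 in SS). In SM against SS, 19 of these genes were lower and none higher (median -0.45, sums 28646 to 37535 in SM). In MS against SM, 1 was higher and none lower. Mog, a myelin surface protein, had 10.50 to 10.80 (median 10.61) in MS, against 10.98, 10.99, 11.10 and 11.14 in SS (log2 difference -0.41, SE 0.11, adjusted p = 0.00891), and Mobp, a protein of compact myelin, 10.24 to 10.81 (median 10.72) in MS, against 10.72, 11.52, 11.56 and 11.30 in SS (log2 difference -0.63, SE 0.15, adjusted p = 0.00276). Mobp overlapped through SS replicate 1, its lowest SS array, slide 1 alone gave neither call, and the series matrix values did not give that on Mog. Of 23 microglial genes, 2 were higher and none lower, and Aif1, or IBA1, was not called (log2 difference 0.18, SE 0.09, adjusted p = 0.155).

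Among developmental transcription factors, 11 of 89 were higher and 14 lower (5 higher and 4 lower with the series matrix values, 2 and 5 on slide 1 alone). Lhx6, which specifies interneurons of the medial ganglionic eminence, had log2 values of 7.22 to 7.65 (median 7.30) in MS, against 5.91, 6.17, 5.86 and 6.51 in SS, and rose 2.43-fold (log2 difference 1.28, SE 0.11, adjusted p = 5.55e-09). Of 20 GABA interneuron markers, Lhx6 among them, 7 were higher, 2 lower and 11 not called (median 0.08). Their sums overlapped, with 18394 to 19920 in MS and 17721 to 18605 in SS. Emx2, a cortical factor, had 7.34 to 7.86 (median 7.75) in MS, against 8.60, 8.66, 8.24 and 8.26 in SS, and fell 1.69-fold (log2 difference -0.76, SE 0.09, adjusted p = 9.49e-07). Of 19 imprinted genes, which are read from 1 parental copy, 7 were higher and 1 lower (4 higher and 1 lower with the series matrix values, 3 and 1 on slide 1 alone), and 4 of the 7 are hypothalamic or septal markers. Dlk1, a Notch-like ligand, had 5.82 to 6.45 (median 5.92) in MS, where all 7 arrays detected it, against 4.83, 5.04, 4.61 and 4.83 in SS, where 1 of 4 did. Its log2 difference of 1.19 (adjusted p = 1.43e-06) thus rests on 3 SS values at background and is no exact size. Ndn, or necdin, had 12.12 to 12.57 (median 12.35) in MS, against 11.81, 11.88, 11.76 and 11.76 in SS, and rose 1.47-fold (log2 difference 0.55, SE 0.08, adjusted p = 1.60e-05), which slide 1 alone and the series matrix values did not give. Snrpn, imprinted in the same region as Ndn, was not called (log2 difference -0.06, SE 0.06, adjusted p = 0.527).

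Of 106 histone-modifying enzymes, 7 were higher and 9 lower, shares below the background. Of 22 genes of DNA methylation and demethylation, 1 was higher and 4 were lower (0 higher and 2 lower with the series matrix values, 0 and 0 on slide 1 alone, median 0.01). Ezh1, a methyltransferase of Polycomb repressive complex 2, had log2 values of 10.62 to 10.90 (median 10.86) in MS, against 11.75, 11.16, 11.26 and 11.90 in SS, and fell 1.64-fold (log2 difference -0.72, SE 0.13, adjusted p = 0.00018), except on slide 1 alone. Lists of the basic machinery of the cell had shares under the background. Of 57 translation factors and tRNA synthetases, 1 was higher and none lower, and of 72 respiratory chain genes, 5 were higher and none lower. Of 56 ribosomal proteins, 3 were higher and 1 lower, and of 222 genes of the proteasome and ubiquitin, 14 were higher and 14 lower. Eef1a1, the main elongation factor (log2 difference 0.15, SE 0.07, adjusted p = 0.147), and Atp5f1b, the beta subunit of ATP synthase (log2 difference 0.03, SE 0.06, adjusted p = 0.814), were not called, and the MS and SS arrays of Atp5f1b spanned 13.31 to 13.52 and 13.33 to 13.39.

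Among the genes ranked just below the 12 largest, some belong to none of these families. Qprt, an enzyme of NAD synthesis that removes the neurotoxin quinolinic acid, had log2 values of 7.31 to 7.68 (median 7.48) in MS, against 6.04, 6.36, 6.36 and 6.37 in SS, and rose 2.30-fold (log2 difference 1.20, SE 0.09, adjusted p = 2.43e-10). Aqp11, an intracellular aquaporin, had 8.75 to 9.06 (median 8.98) in MS, against 7.36, 7.82, 7.89 and 7.86 in SS, and rose 2.34-fold (log2 difference 1.23, SE 0.08, adjusted p = 6.95e-11), the smallest p of the genes named here. Thrsp, a thyroid hormone-responsive gene of lipid synthesis, had 6.35 to 7.41 (median 7.14) in MS, against 8.36, 8.23, 8.43 and 8.11 in SS, and fell 2.37-fold (log2 difference -1.25, SE 0.16, adjusted p = 1.88e-06). None of these genes overlapped between the groups.

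METH a month before can also be compared among rats challenged with METH, as MM against SM, which shares no arrays with MS against SS. There, 1.28% of all probes were called, with 65 named genes higher (0.731%) and 60 lower (0.675%), and the difference between both comparisons passed for 7.67% of all probes. Most genes named here were chosen for their change in MS against SS, which is part of that difference, so that how many of them pass is fixed in part by the choice. Kcnj16 had a log2 difference of 0.65 in MM against SM (adjusted p = 1.96e-05), Spp1 0.84 (adjusted p = 0.004), Agt 0.45 (adjusted p = 0.034) and Sstr1 0.60 (adjusted p = 0.0409). These genes rose in both comparisons, and for Spp1 the difference between them was not called (0.57, adjusted p = 0.0998). Aqp11 and Qprt also rose, by 0.31 and 0.32 (adjusted p = 0.0335 and 0.0431), and Ptpn5 fell in both (-0.36 in MM against SM, adjusted p = 0.0473).

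Several genes with large changes in MS against SS differed between the comparisons. Fst differed by -0.01 in MM against SM (adjusted p = 0.988) and the difference between the comparisons was -1.39 (adjusted p = 3.53e-06), Cnr1 by 0.01 (adjusted p = 0.975; difference -1.13, adjusted p = 3.76e-05) and Rgs4 by 0.04 (adjusted p = 0.864; difference -0.86, adjusted p = 2.99e-05). Gfap had 0.44 in MM against SM (adjusted p = 0.052), not called, and a difference between the comparisons of -1.70 (adjusted p = 4.39e-07). The ER stress list and the TGF-beta pathway each had 9 members with a called negative difference and none with a positive one, where 4.78% of all named genes had a negative and 3.37% a positive one. These lists were not alone. Of 27 oligodendrocyte genes 12 had a negative difference, of 25 medium spiny neuron markers 11, and none a positive one. Against SS, the SM arrays had 8 ER stress genes lower and 1 higher, and 10 TGF-beta genes lower and none higher. Neither list had a member called in MS against SM. In SM against SS, with no METH a month before, Fst had -1.14 (adjusted p = 4.94e-07), Cnr1 -1.12 (adjusted p = 3.45e-07), Gfap -1.62 (adjusted p = 3.62e-09) and Glra2 1.00 (adjusted p = 1.06e-07), beside -1.40, -1.12, -1.25 and 1.14 in MS against SS. Both comparisons share the 4 SS arrays, so that a deviation of these arrays enters both. Choroid plexus genes had sums of 6338 to 23628 on the MM arrays and 4716 to 5378 on the SM arrays, and their part in MM against SM was not tested.

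**Figure D4:**
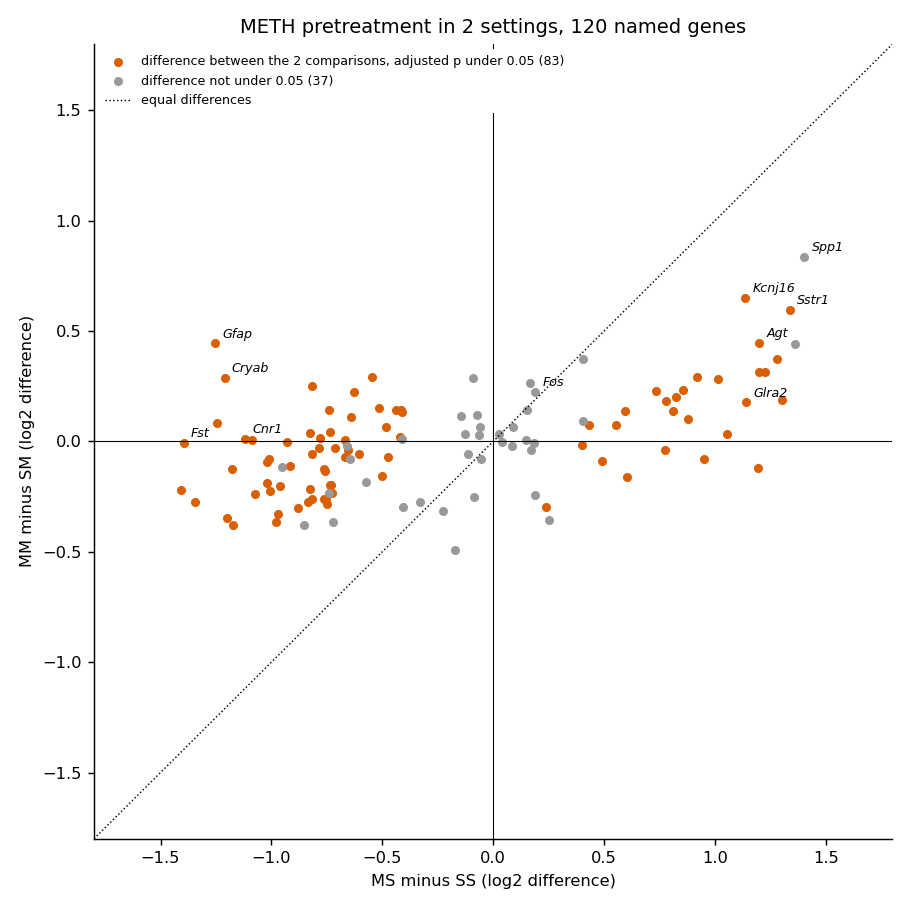
Log2 difference of MS against SS (horizontal axis) and of MM against SM (vertical axis) for the 120 genes named here, with the dotted line where both are equal. Orange points (83 genes) had an adjusted p under 0.05 for the difference between the comparisons. Gfap lies at -1.25 and 0.44, and Spp1 at 1.40 and 0.84.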

How the data were processed

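RNA of 24 NAc samples was hybridised to Illumina BeadChips, and the authors exported probe values with BeadStudio. The deposited intensity values are not normalized and reach -21 after background subtraction, and 26.1% lie under 1. The deposited detection column of each array is a fraction, 1 minus a detection p, and stands in another row order than the intensities (Spearman -0.00699 to 2.47e-04), so detection was paired with intensity by rank within each array. The authors' series matrix holds log2 values, which equal the log2 intensity floored at 1 minus the probe's median. It served as an alternative.

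Intensities were corrected and quantile-normalized with neqc (limma 3.58.1, R 4.3.3, offset 16). Probes detected at p under 0.05 on at least 4 arrays were kept (12956 of 22523). A mean per group was fitted over all 24 arrays, with lmFit and eBayes and Benjamini-Hochberg adjustment, and the contrasts set MS and SM each against SS, MS and MM each against SM, and MS minus SS against MM minus SM. Groups came from the sample titles. Symbols came from the platform annotation (9100 tested probes, 8894 genes). The code was tested on simulated data. The members, gene lists and tests were chosen with earlier results of these data known. From each list, up to 6 called genes of lowest p, up to 3 others with the highest mean, and genes ranked 13 to 30 by change were eligible to be named, and a selection of these is given. The number of arrays limits the precision. Alternatives were background correction, normalization, filter, slide, array weights and each array left out.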

Additional observations from a re-analysis of the deposited data

Results flagged for a closer look

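In 83 of the 120 named genes the log2 difference of MS against SS was not equal to that of MM against SM, at an adjusted p under 0.05 for the difference between the comparisons (limma, 1 fit over all arrays). Most of these genes were named for their change in MS against SS, which is part of this difference, so that their number is not a result. Calcr and Kcnj16 were detected on no SS array and Dlk1 on 1, so that their values rest on SS levels at background. The values that follow are that difference on the log2 scale, (MS minus SS) minus (MM minus SM). Among medium spiny neuron and cortical genes, it was negative at -1.05 for Rasd2, -0.93 for Pde10a, -0.76 for Rgs9, -0.64 for Emx2, -0.58 for Tac1, -0.50 for Drd2, -0.49 for Ppp1r1b, -0.47 for Foxp1 and -0.35 for Drd1. Among peptides and peptide or orphan receptors, it was positive at 0.81 for Tac3, 0.75 for Agt, 0.74 for Sstr1, 0.73 for Calcr, 0.68 for Oprl1 and 0.60 for Pnoc. Peptides and peptide or orphan receptors with negative values had -0.80 for Vgf and -0.56 for Gpr12. Among transmitter receptors, it was positive at 1.11 for Htr7, 1.02 for Grik1, 0.96 for Glra2 and 0.58 for Gabrb1. Transmitter receptors with negative values had -1.13 for Cnr1, -0.84 for Grin2c, -0.66 for Cacng2, -0.62 for Gabrd, -0.55 for Adora1 and -0.54 for Hrh3. Among ion channels and pumps, it was positive at 0.77 for Kcns3, 0.63 for Kcnc2 and 0.48 for Kcnj16. Ion channels and pumps with negative values had -1.10 for Kcng1, -1.07 for Scn4b, -0.92 for Kcns2, -0.62 for Cacnb3 and -0.56 for Atp2b1. Among genes of intracellular signalling, it was positive at 0.62 for Adcy8 and 0.51 for Camk1g. Genes of intracellular signalling with negative values had -0.86 for Rgs4, -0.86 for Ppp1r1a, -0.76 for Rgs8, -0.64 for Camk4 and -0.49 for Pde2a. Among genes of the TGF-beta and activin pathway, it was negative at -1.39 for Fst, -1.19 for Acvr1c, -0.93 for Smad7, -0.78 for Tgfb1 and -0.75 for Acvr1. Among immediate early genes, it was positive at 0.76 for Btg1. Immediate early genes with negative values had -0.88 for Ier2, -0.84 for Crem, -0.75 for Gadd45g, -0.61 for Ier5 and -0.53 for Zfp36. Among glucocorticoid-responsive and clock genes, it was negative at -1.07 for Sgk1, -0.80 for Klf9 and -0.60 for Fkbp5. Among chaperones, it was negative at -1.50 for Cryab, -0.67 for Pdia5, -0.58 for Hspa5, -0.55 for Dnajc3, -0.55 for Hsp90b1, -0.55 for Creld2, -0.44 for Calr and -0.40 for Dnajb11. Among vesicle, actin and matrix genes, it was positive at 1.03 for Gpc3, 0.62 for Cntnap4, 0.46 for Cadps and 0.36 for Syp. Vesicle, actin and matrix genes with negative values had -0.83 for Col18a1, -0.80 for Acta1, -0.78 for Reln and -0.61 for Actn2. Among the remaining genes, it was positive at 1.31 for Dlk1, 0.91 for Aqp11, 0.91 for Lhx6, 0.88 for Qprt, 0.54 for Gria2, 0.48 for Ndn and 0.42 for Slc1a3. The remaining genes with negative values had -1.70 for Gfap, -1.33 for Thrsp, -0.85 for Mobp and -0.68 for Ezh1. 

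In 22 of 240 groups of arrays, 1 array stood apart from the others of its group, and chance alone does so in about 1 in 20 groups. These were MS replicate 1 in 11 groups, MS replicate 2 in 4, MS replicate 3 in 1, SS replicate 1 in 5 and SS replicate 3 in 1. The log2 value of MS replicate 1 was 9.48 for Glra2 (others 9.09 to 9.24), 7.55 for Htr7 (others 6.51 to 6.88), 11.22 for Rgs9 (others 11.84 to 12.20), 11.88 for Calr (others 12.27 to 12.49), 11.45 for Hspa5 (others 11.80 to 12.02), 10.24 for Mobp (others 10.58 to 10.81), 6.91 for Vgf (others 6.54 to 6.67), 9.65 for Scn2a (others 8.84 to 9.10), 10.04 for Stim1 (others 10.59 to 10.72), 12.54 for Gnb1 (others 12.02 to 12.21) and 9.75 for Xbp1 (others 10.12 to 10.32). The log2 value of MS replicate 2 was 11.24 for Gfap (others 10.46 to 10.70), 7.82 for Nr4a3 (others 6.70 to 7.00), 10.89 for Btg1 (others 11.03 to 11.12) and 8.75 for Aqp11 (others 8.93 to 9.06). The log2 value of MS replicate 3 was 5.95 for Gpr12 (others 6.23 to 6.42). The log2 value of SS replicate 1 was 7.13 for Cnr1 (others 6.72 to 6.78), 5.68 for Adcy8 (others 6.28 to 6.36), 7.36 for Aqp11 (others 7.82 to 7.89), 6.04 for Qprt (others 6.36 to 6.37) and 13.52 for Eef1a1 (others 13.69 to 13.72). The log2 value of SS replicate 3 was 9.09 for Per1 (others 9.56 to 9.60).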

How the results depend on the processing

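Of the 95 named genes called in MS against SS, 54 kept their call in all settings that tested them (26 were tried, and Calcr, Kcnj16 and Dlk1 were not tested where detection on all 24 arrays was asked for), 41 lost it in at least 1 and 0 reversed, and 4 of the 25 genes not called were called in at least 1. With each array scaled to one median, 1523 probes were called (764 higher and 759 lower). With the series matrix values 737 were called (509 higher and 228 lower), with 10 in MM against SM, 159 for the difference between the comparisons and 18 in MS against SM. Slide 1 alone gave 442 (197 higher and 245 lower), and slide 2 alone 1038 higher and 1041 lower, each with 2 SS arrays. With 1 array left out, the higher probes numbered 841 to 1267 and the lower probes 912 to 1316, lowest without SS replicate 4 and highest without SS replicate 1. Without the 3 arrays of low weight, an alternative chosen after seeing the data, 1507 were higher and 1482 lower. These arrays were MS replicate 1, SS replicate 1 and SM replicate 3 (weights 0.32, 0.34 and 0.25), and all lay on slide 1. Slide as a block gave 1174 and 1229. The causes were not tested. No paired analysis was possible because the labels give no replicate numbers that link arrays of different groups. Only 4 SS arrays limit every comparison with SS, and dim probes are bounded by background.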
